A study of Mus musculus with 12 samples.

Results

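Colon RNA of mice that lack Glul in myeloid cells was set against colon RNA of their littermates, with both genotypes given DSS. The comparison rests on 6 of the 12 libraries of the series, taken by the genotype and treatment labels, and covers every gene of the table of normalized counts. The 3 knockout libraries are called knockout 1, 2 and 3 here, and the 3 littermate libraries littermate 1, 2 and 4, after the numbers in their titles. Both genotypes carry floxed Glul alleles (Glul f/f), and the knockout mice are labelled Glul∆Lyz2, a deletion driven from Lyz2, which is active in macrophages, monocytes and neutrophils. The other 6 libraries are 3 of each genotype on water. The labels give no age, DSS dose or duration, and leave unsaid whether a library stands for 1 animal. The p-values therefore speak of the scatter among these libraries alone, part of which may be technical.

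Glul encodes glutamine synthetase, which makes glutamine from glutamate and ammonia. In macrophages the enzyme is known to be abundant in alternatively activated cells, and many other cells of the gut wall make it as well. DSS, dextran sulfate sodium, damages the colon epithelium and is used to model colitis in mice. The injured wall draws in neutrophils along CXCL1, CXCL2 and CXCL5, ligands of the receptor CXCR2, and monocytes along CCL2 and CCL7, while the epithelium restores itself from surviving crypts.

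The littermate libraries held 30.4 to 30.5 M reads and the knockout libraries 14.7 to 31.0 M, with knockout 3 the shallowest. Colon markers were present throughout: Epcam, an epithelial adhesion protein, stood between 12204 and 16193 normalized counts in the 6 libraries. Knockout 3 stood apart. On the first principal component of the 6 libraries, which held 32.2% of the variance, it lay at 167 and the others between -65.1 and 5.90, and with 0.344 it had the lowest limma sample weight of the 12. Values without it stand beside some of the genes in which it was far above or below the other libraries. The second component, with 21.1%, placed littermate 1 at 59.4 and knockout 2 at 97.8, both above the other 4 libraries.

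No gene passed in the main fit, which held all 12 libraries. Of 23263 genes tested with limma on log2(normalized count + 1), 0 (0%) had an adjusted p under 0.05, and the smallest adjusted p was 0.154. At an unadjusted p under 0.05 stood 1215 genes (5.22%), of which 497 were higher in the knockout (2.14%) and 718 lower (3.09%). That split turned round when littermate 4 was left out, with 662 higher and 492 lower. The same fit with depth-based voom weights also called 0 genes. The groups did not overlap for 1645 genes (7.07%), with all knockout libraries higher for 695 (2.99%) and lower for 950 (4.08%). The median log2 difference over all tested genes was -0.01 and the median standard error was 0.44. Libraries of 1 group differed by a median SD of 0.47 in the littermates and 0.53 in the knockouts on the log2 scale. In what follows, a log2 difference is knockout minus littermate with its standard error, adjusted p values are limma's over all tested genes, and gene and list values describe these libraries without a call.

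Glul, at chromosome 1:153899944-153909723 on the plus strand of GRCm38, is the gene the label names as deleted. It stood at 7372, 7895 and 18267 normalized counts in littermates 1, 2 and 4, and at 4225, 3273 and 6723 in knockouts 1, 2 and 3. All knockout libraries were below all littermate libraries, and littermate 4 was far above its group. The means were 11178 ± 6145 and 4741 ± 1782 (SD, n = 3 each). The log2 difference was -1.17 ± 0.56 with an adjusted p of 0.952, and it moved between -1.46 and -0.75 when each DSS library in turn was left out. A two-sided exact permutation test gave p = 0.1, the smallest that 3 against 3 libraries allow. Whole colon was sequenced, so RNA of cells without the deletion is counted too, and fewer cells of a type cannot be told apart from less RNA per cell in any result here.

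**Figure D1:**
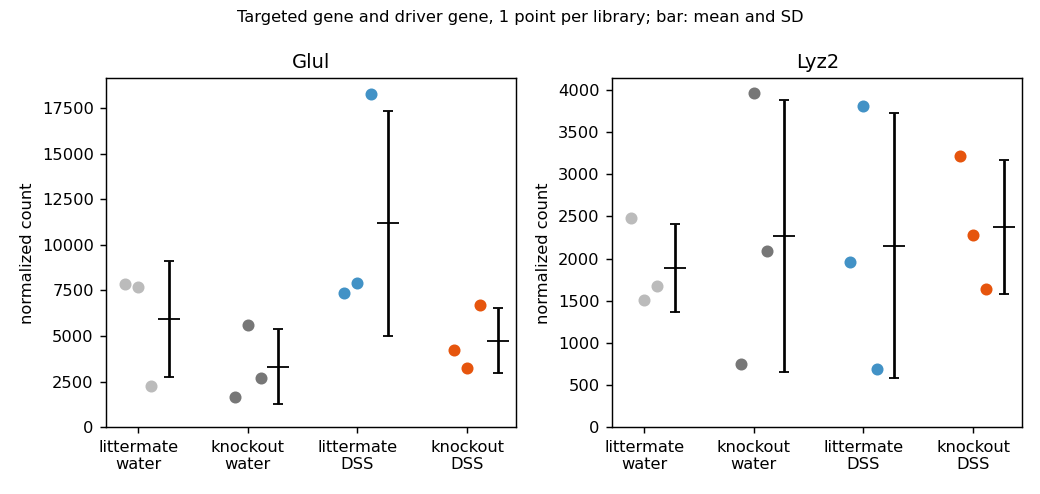
Normalized counts of Glul and Lyz2 (y axis, linear) in the 4 groups, with 1 point per library and the mean and SD beside them. On DSS the knockout libraries lie between 3273 and 6723 for Glul, below the littermates at 7372 to 18267, while the Lyz2 points overlap.

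Lyz2, which encodes lysozyme M of macrophages and drives the deletion, stood at 1955, 3809 and 693 in the littermates and at 3214, 2281 and 1639 in the knockouts. The groups overlapped, with a log2 difference of 0.41 ± 0.63 and an exact two-sided permutation p of 0.8. On water the Glul difference had the same sign, at -0.81 ± 0.56, and its groups overlapped (exact permutation p = 0.3).

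The genes of smallest p among those whose groups did not overlap were of mixed function. Among the 12 higher in the knockout, the chemokine Cxcl1, the neutrophil gene S100a9 and the cytokine Lif belong to inflammation and are described with their groups. Zbtb45, a zinc finger transcription regulator, stood at 55.5, 25.7 and 56.8 normalized counts in the littermates and at 156, 189 and 213 in the knockouts, a log2 difference of 2.06 ± 0.38 (adjusted p 0.712). Tinagl1, a secreted matrix-associated protein, stood at 963, 1324 and 922 against 2435, 2720.3 and 1959, a difference of 1.15 ± 0.23 (adjusted p 0.712). In both genes every knockout library stood clear of the highest littermate, and no single knockout library set the difference.

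Kbtbd2, an adaptor of a cullin ubiquitin ligase, stood at 225, 259.9 and 175 against 1518, 1716 and 360.0. Knockouts 1 and 2 were far above the rest and knockout 3 only just above the littermates, with a log2 difference of 2.17 ± 0.47 that became 2.89 without knockout 3, where it passed at an adjusted p of 0.00318. Pfkfb3, which makes the fructose 2,6-bisphosphate that drives glycolysis, stood at 269, 489.9 and 324 against 3250.1, 1397 and 665, a log2 difference of 2.04 ± 0.52. The hexokinase gene Hk2 was likewise highest in knockouts 1 and 2, at 23346 and 23934, with knockout 3 at 6650 below the littermates' 7257 to 8317. Over the 23 genes of glycolysis and hypoxia the median log2 difference was 0.15, with 17 higher, 6 lower and 1, Pfkfb3, free of overlap. Of all tested genes 2.99% were higher without overlap. The other genes of the 12 were Hist2h3c1, Wdr73, Sphk1, Tnfrsf23 and Tgm1, with log2 differences from 1.36 to 2.24.

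Among the 12 lower in the knockout were several enzymes of metabolism. Sult1a1, a sulfotransferase that conjugates phenols, stood at 6362, 4953 and 4639 in the littermates and at 1988, 3436 and 2136 in the knockouts, a log2 difference of -1.11 ± 0.24 (adjusted p 0.712). Fads3, of the fatty acid desaturase family, stood at 866, 1429.9 and 1234 against 243, 622 and 189, a difference of -1.91 ± 0.41. Pck1, the cytosolic enzyme that makes phosphoenolpyruvate from oxaloacetate, stood at 871, 1146 and 1459 against 414, 447 and 482, a difference of -1.34 ± 0.33. The knockout libraries agreed closely for Pck1 and were scattered for Fads3. Pdk2, a kinase that restrains pyruvate dehydrogenase, Oxsm, of mitochondrial fatty acid synthesis, Acer1, a ceramidase, and Creb3l4, a transcription factor held in the endoplasmic reticulum, had log2 differences of -1.02, -0.95, -1.88 and -1.01. The rest were Ccdc114, Mfsd9, Zfp467, mt-Td and Themis, the last 2 described with their groups.

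Most of the listed neutrophil genes had positive log2 differences, at low normalized counts. S100a9, a subunit of the calprotectin of neutrophils, was at 0, 0 and 3.29 in the littermates and at 162, 9.51 and 121 in the knockouts, and its partner S100a8 at 9.25, 18.3 and 3.29 against 144, 6.79 and 75.1. For both, knockouts 1 and 3 were high and knockout 2 was near the littermates, so that S100a8 overlapped. Their log2 differences were 5.19 ± 1.21 (adjusted p 0.917) and 2.22 ± 1.27 (adjusted p 0.960). The first rests on 4 littermate reads and depends on the pseudocount of 1.

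Clec4e, a C-type lectin receptor of myeloid cells, stood at 0, 5.81 and 7.41 against 41.1, 29.9 and 108 (3.76 ± 1.21). The related receptor Clec4d, under the minimum mean for the test and picked after its values were seen, had no read in the littermates and 37.9, 17.7 and 31.3 in the knockouts, at least 11.6-fold higher, with the littermates set at a floor of 3 reads per library. With no filter on low values it passed, at a limma adjusted p of 0.0291. Mmp9, a neutrophil gelatinase, was at 0, 0 and 18.9 against 86.3, 17.7 and 42.3, where only knockout 2 lay below a littermate. On water, where S100a9 was at 0, Mmp9 averaged 30.4 in the littermates and 27.2 in the knockouts. Those means lay above the 6.31 of the littermates on DSS. Csf3r, the receptor of the neutrophil growth factor G-CSF, stood at 58.9, 85.5 and 35.4 against 218, 89.7 and 116, a log2 difference of 1.21 ± 0.65. Knockout 2 exceeded littermate 2 by little for Csf3r, and knockout 1 was highest.

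Of the 20 listed neutrophil genes 11 were tested, and 0 passed. All 11 differences were positive, with a median of 1.74 that ran from 1.36 to 2.40 when 1 DSS library was left out, beside -0.01 for all genes. The groups did not overlap for 4 (S100a9, Clec4e, Csf3r and Hdc), all higher, beside 2.99% of all tested genes. A low gene can reach the minimum mean through the group where it is high, so these counts are no support on their own. With all 20 members, tested or not, 17 were positive and 2 negative, and the median was 1.69. The list score, the mean log2 level of all 20 members relative to each gene's mean over the 12 libraries, was 0.072, -0.28 and 0.080 in the littermates and 2.44, 0.87 and 2.04 in the knockouts. Granule genes of immature neutrophils were at or near 0, with no read of Elane in any of the 6 libraries and Mpo at most 2.47. Ly6g stood at 898, 2835 and 178 in the littermates and at 7874, 1169.9 and 895 in the knockouts, and overlapped. It made up 44.3% to 91.1% of the summed level of the list, which overlapped too, from 376 to 3111 in the littermates and from 2020.4 to 9258 in the knockouts.

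Of the CXCR2 ligands, Cxcl1 and Cxcl5 were higher in every knockout library and Cxcl2 was not. Cxcl1 stood at 0, 17.4 and 10.7 normalized counts in the littermates and at 381, 119.6 and 465 in the knockouts, a log2 difference of 5.53 ± 1.05 (adjusted p 0.712) that ranged from 4.24 to 6.34 when 1 DSS library was left out. Cxcl2 stood at 19.3, 25.7 and 7.41 against 93.5, 23.1 and 332 (2.46 ± 1.10). Cxcl5 stood at 0, 102 and 0 against 1563, 519 and 131 (6.66 ± 1.78, adjusted p 0.951). With littermates 1 and 4 at 0 its difference depends on the pseudocount of 1, and the ratio of the group means was 21.7. Knockout 3 exceeded littermate 2 by little for Cxcl5. For Cxcl2 knockout 2 lay among the littermates, and the difference was 1.52 without knockout 3.

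Cxcl1 and Cxcl2 lie side by side on chromosome 5, and their promoters, from 250 bases before to 50 after the start in the RefSeq table for GRCm38.p6, are printed because both hold the motif GGNNTTTCC bound by NF-κB, a factor of inflammatory signalling. The motif is in capitals on the strand printed, which is the strand of the gene, and appears there as GGNNTTTCC or as its reverse complement GGAAANNCC. Cxcl1 spans chr5:90890995-90891294 and Cxcl2 chr5:90903649-90903948, both on the plus strand.
Cxcl1: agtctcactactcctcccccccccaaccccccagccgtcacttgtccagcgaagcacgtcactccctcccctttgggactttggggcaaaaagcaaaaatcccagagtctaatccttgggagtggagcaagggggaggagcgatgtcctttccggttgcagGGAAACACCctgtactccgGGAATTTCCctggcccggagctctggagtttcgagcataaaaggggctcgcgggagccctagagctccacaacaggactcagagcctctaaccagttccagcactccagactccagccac
Cxcl2: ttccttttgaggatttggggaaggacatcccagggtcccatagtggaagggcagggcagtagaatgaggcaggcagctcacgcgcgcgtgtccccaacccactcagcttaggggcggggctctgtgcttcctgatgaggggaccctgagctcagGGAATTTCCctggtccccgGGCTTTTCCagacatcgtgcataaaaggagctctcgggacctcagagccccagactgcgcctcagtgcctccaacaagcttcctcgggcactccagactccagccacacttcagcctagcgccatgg
In each promoter 2 matches were found, beginning 89 and 70 bases upstream of the start in Cxcl1 and 96 and 77 in Cxcl2. Searched on both strands, the motif was in 1913 of the 32851 promoters of the table (5.82%). Of 12 genes asked for after their values were seen, 9 had an entry, and 3 held the motif, Cxcl1, Cxcl2 and Il6. A match describes letters in this window and is no measured site.

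Of 29 listed chemokines 25 were tested and 0 passed, with 13 higher, 12 lower and a median of 0.10. Over the 28 with a read, tested or not, 16 were higher, 12 lower and the median was 0.36. Their score was 0.38, 0.49 and 0.10 in the littermates and 1.47, 0.78 and 1.16 in the knockouts. The summed levels overlapped, from 11387 to 15869 in the littermates and from 9997 to 16629 in the knockouts. Ccl7, which attracts monocytes, stood at 56.4, 81.4 and 27.2 in the littermates and at 173, 209 and 269 in the knockouts, a log2 difference of 2.07 ± 0.62. Ccl2, of the same receptor, stood at 39.5, 8.30 and 14.8 against 12.1, 84.2 and 127, and knockout 1 lay among the littermates. Without overlap were 4 higher, Cxcl1, Cxcl5, Ccl7 and the lymphoid chemokine Ccl21a, and 1 lower, the T cell chemokine Ccl5, at 20.2, 17.4 and 32.1 against 10.5, 13.6 and 0. Of all tested genes 2.99% were higher and 4.08% lower without overlap. The Ccl5 difference was -2.09, and -0.86 without knockout 3.

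Several cytokine genes stood higher in the knockouts, with differences between their libraries. Lif, an IL-6 family cytokine, stood at 111, 63.1 and 186 in the littermates and at 327, 458 and 524 in the knockouts, a log2 difference of 1.96 ± 0.42 (adjusted p 0.712). Il1b stood at 162, 132 and 74.9 against 429, 212 and 174, a difference of 1.09 ± 0.57. For both genes the groups did not overlap, and the libraries within each group were of the same order.

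Il11, which acts on stroma and epithelium, stood at 0, 0 and 20.6 against 33.9, 10.9 and 565, and Il6 at 0, 39.0 and 0 against 31.4, 19.0 and 227. Ptgs2, the inducible enzyme of prostaglandin synthesis, stood at 210.3, 292 and 399 against 416, 295 and 6207. Knockout 3 was far above all other libraries for these 3 genes. Their log2 differences were 4.47, 3.95 and 1.65, and 2.87, 2.90 and 0.27 without knockout 3. Il22, a cytokine that acts on epithelium, was read in knockout 1 alone, at 243. Of the 22 listed mediators 14 were tested, 12 were higher and 2 lower, and the median of 1.46 ran from 0.90 to 1.57 when 1 DSS library was left out. It was the same with Il22, without a littermate read, set at its bound of 3 reads per library, and was 1.27 over all 22 members without the filter. The score over all 22 members was 0.12, -0.046 and 0.32 in the littermates and 1.502, 0.84 and 1.55 in the knockouts.

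**Figure D2:**
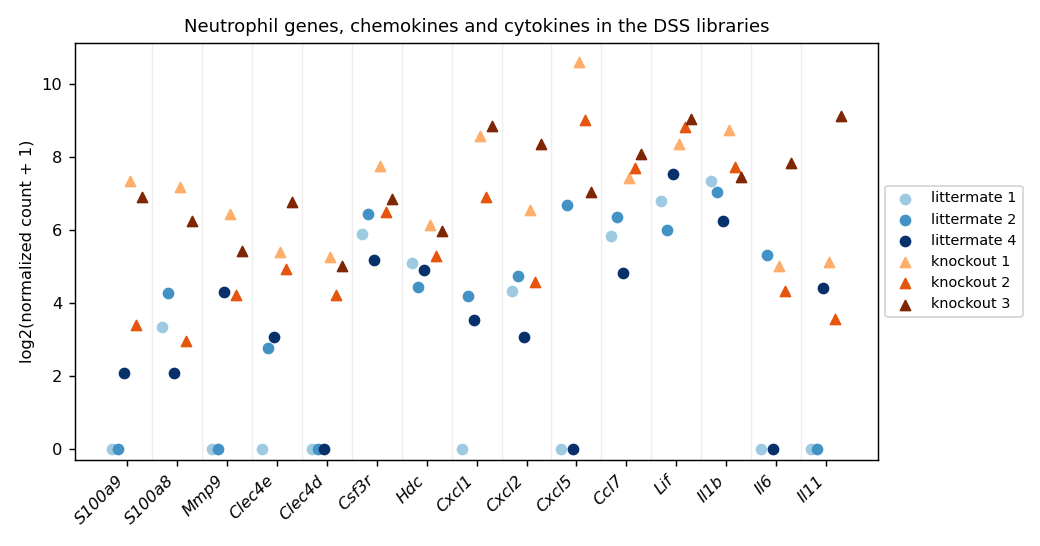
Levels of 15 neutrophil, chemokine and cytokine genes as log2(normalized count + 1) (y axis) in the 3 littermate and 3 knockout DSS libraries, 1 point per library. Knockout 1 and knockout 3 are the highest pair for S100a9 (162 and 121 normalized counts) and Cxcl1 (381 and 465), and several littermate points lie at 0.

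Genes of monocytes and macrophages, the cells in which Lyz2 is active, had a list median near that of all genes. Csf1r, the receptor of their growth factor, stood at 575, 1319 and 475 in the littermates and at 933, 522 and 598 in the knockouts (-0.10 ± 0.46). Adgre1, the F4/80 antigen, stood at 113, 447 and 184 against 220.1, 272 and 321 (0.35 ± 0.57). Both genes overlapped, and littermate 2 was the highest library for each. The median over 26 tested of 27 genes was 0.12, and it ran from -0.22 to 0.39 when 1 DSS library was left out.

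Within that list Timd4, a phagocytic receptor of resident macrophages, stood at 11.8, 18.3 and 9.88 against 37.1, 33.97 and 45.4 (1.51 ± 1.01), and Fcgr4, an Fc receptor, at 86.6, 73.1 and 44.5 against 89.5, 118 and 100.2 (0.63 ± 0.60). These were the 2 genes of the list without overlap, both higher, beside 2.99% of all tested genes. For Fcgr4 knockout 1 lay just above littermate 1. Among 12 tested genes of alternative activation 9 were higher and 3 lower with a median of 0.58. Folr2, a folate receptor of resident macrophages, stood at 0, 0 and 5.76 against 27.4, 6.79 and 17.2, and Mrc1, the mannose receptor, at 392, 834 and 385 against 1221, 382 and 717, where knockout 2 was the lowest of the 6.

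Genes of T cells were lower in most knockout libraries. Cd4, the co-receptor of helper T cells, stood at 209, 319.7 and 273 normalized counts in the littermates and at 178, 99.2 and 45.4 in the knockouts, a log2 difference of -1.49 ± 0.59 (adjusted p 0.951). Cd8a, the co-receptor of cytotoxic T cells, stood at 59.7, 68.9 and 111 against 22.6, 50.3 and 0 (-2.87 ± 1.19). Cd2, an adhesion receptor, stood at 124, 43.2 and 56.0 against 25.8, 5.44 and 0 (-3.61 ± 1.07). None of the 3 overlapped between groups, and knockout 3 was the lowest library for each. Without knockout 3 the differences were -0.98 for Cd4, -1.17 for Cd8a and -2.37 for Cd2.

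Themis, a T cell signalling protein, stood at 26.9, 34.9 and 97.2 against 9.68, 0 and 0 (-4.39 ± 1.03, adjusted p 0.917). Cd3e, a chain of the T cell receptor complex, stood at 92.5, 53.1 and 205 against 12.9, 102 and 15.7 (-1.82 ± 0.84), where knockout 2 lay among the littermates. Of 29 listed genes of T and NK cells 27 were tested and 0 passed, with 24 lower and 3 higher, and a median of -1.14 that ran from -1.32 to -0.56 when 1 DSS library was left out. The groups did not overlap for 5, Cd2, Cd4, Cd8a, Trbc2 and Cd247, all lower, beside 4.08% of all tested genes. Without knockout 3 the Trbc2 difference was -0.56 in place of -2.18. The list scores overlapped, at 0.17 to 1.19 in the littermates and at -0.40, 0.51 and -1.62 in knockouts 1, 2 and 3. On water the same list had a median of 0.86, positive, from 6 other libraries.

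**Figure D3:**
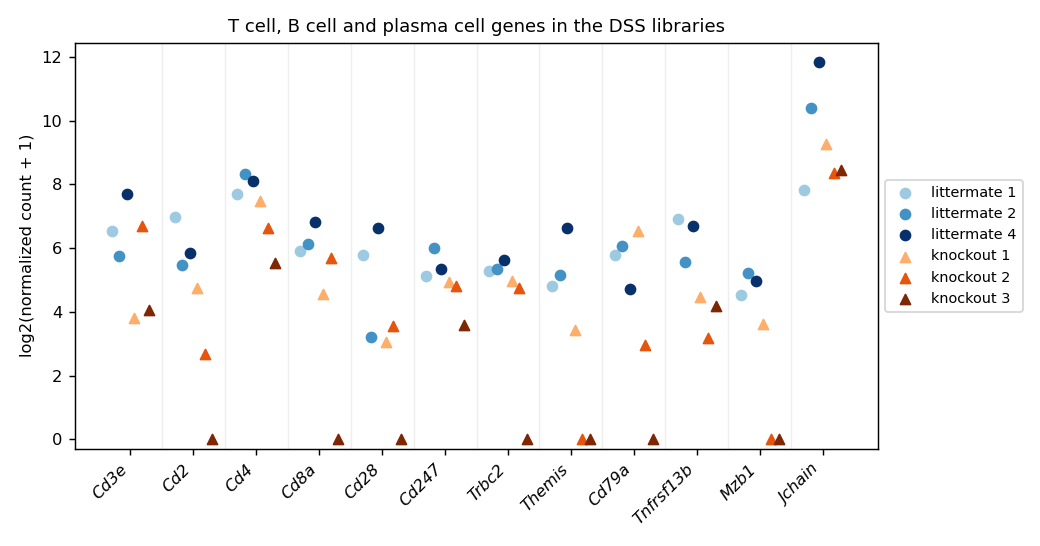
Levels of 12 T cell, B cell and plasma cell genes as log2(normalized count + 1) (y axis) in the 3 littermate and 3 knockout DSS libraries, 1 point per library. For Cd4 the knockout libraries lie at 178, 99.2 and 45.4 normalized counts, below the littermates at 209 to 320, and knockout 3 is at 0 for Cd2 and Cd8a.

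Genes of B and plasma cells separated knockouts 2 and 3 from knockout 1. Knockouts 2 and 3 were also the shallowest DSS libraries, at 19.8 and 14.7 M reads against 31.0 M in knockout 1. The part of depth in that split was not tested. Cd79a, of the B cell receptor, stood at 53.8, 65.6 and 25.5 in the littermates and at 91.1, 6.79 and 0 in the knockouts, so knockout 1 was the highest of all 6. Jchain, which joins secreted antibodies, stood at 225, 1345 and 3700.2 against 609.5, 327 and 346. Tnfrsf13b, a receptor of B cells, stood at 119, 46.5 and 103 against 21.0, 8.15 and 17.2 (-2.45 ± 0.73), and Mzb1, of antibody assembly, at 21.9, 36.5 and 30.5 against 11.3, 0 and 0 (-3.70 ± 1.20). Those last 2 genes alone of the 19 tested had groups without overlap, both lower, beside 4.08% of all tested genes. The list, with 16 lower and 3 higher, had a median of -2.02, which ran from -2.85 to -1.18 when 1 DSS library was left out. Its score was 1.01 in knockout 1, as in littermate 1, and -2.29 and -2.08 in knockouts 2 and 3. Among 112 tested immunoglobulin variable segments, a set formed after values were seen, 94 were lower and the median was -1.57. The groups did not overlap for 14, all lower, beside 4.08% of all tested genes. Such segments share sequence, and how reads were split among them is not given in the sources used here.

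Some groups of genes differed more within a genotype than between genotypes. Gbp2, a guanylate binding protein induced by interferon, stood at 38080.4, 3809.8 and 3806 in the littermates and at 5279, 32027 and 12351 in the knockouts. Cd74, the invariant chain of MHC class II, stood at 27866, 8437 and 4659 against 1852, 22036 and 9144. Mki67, a marker of cycling cells, stood at 22457, 5612 and 5656 against 7795, 16739 and 14278. Littermate 1 and knockout 2, the pair that the second component set apart, were the highest for all 3, so the groups overlapped.

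Of the 38 tested interferon response genes 19 were higher, 19 lower and 0 without overlap, with a median of -0.02. The 17 tested genes of dendritic cells and MHC class II had a median of -0.33. It ran from -0.90 to 0.20 when 1 DSS library was left out and was positive without littermate 1. The 1 gene without overlap was the dendritic cell factor Batf3, at 22.7, 21.6 and 12.4 against 5.64, 9.51 and 0. Of all tested genes 4.08% were lower without overlap. The Batf3 difference was -2.23, and -1.21 without knockout 3. All 30 proliferation genes were higher with a median of 0.47, yet none was free of overlap, and the median ranged from 0.17 to 1.10 when 1 DSS library was left out. Without littermate 1 it was 1.10.

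**Figure D4:**
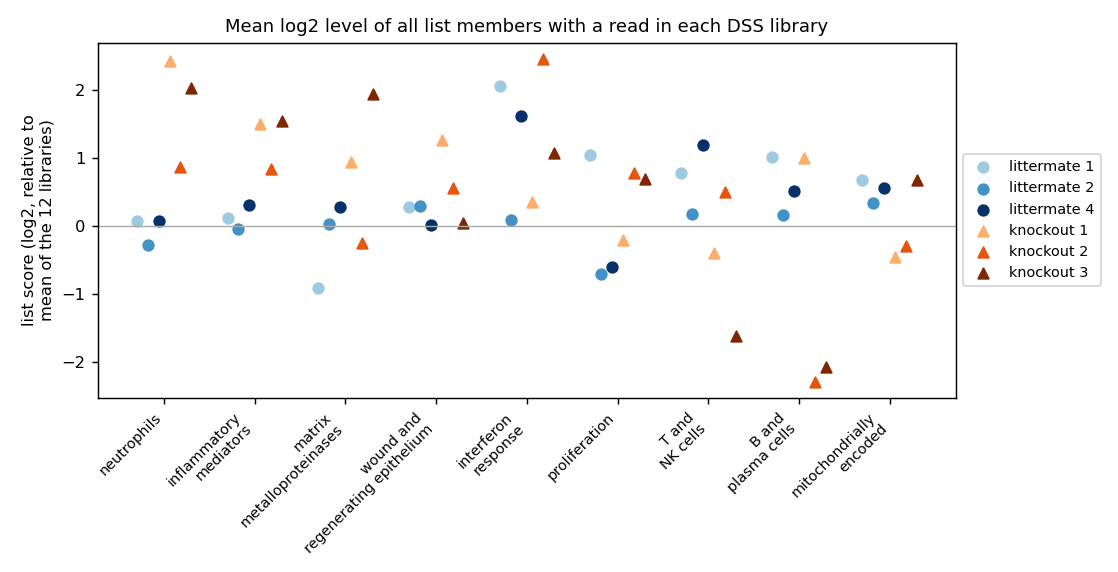
Scores of 9 gene lists (y axis, mean log2 level of all members with a read relative to the mean of the 12 libraries) in each DSS library. The neutrophil scores of the knockouts (0.87 to 2.44) lie above those of the littermates (-0.28 to 0.080), the interferon and proliferation scores overlap, and knockout 1 lies apart from knockouts 2 and 3 for B and plasma cells.

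Ereg, Areg and Tnfrsf12a, from the list of wound and regenerating epithelium, were higher in every knockout library than in any littermate. So were the proteases Adamts4 and Adamts1. Ereg, an EGF receptor ligand, stood at 380.2, 387 and 717 in the littermates and at 1222, 1381 and 5839 in the knockouts, a log2 difference of 2.18 ± 0.56 (adjusted p 0.951) that was 1.46 without knockout 3, the highest library. Areg, a ligand of the same receptor, stood at 769.7, 305 and 727 against 874, 2141 and 856 (1.08 ± 0.46). Tnfrsf12a, the receptor of the cytokine TWEAK, stood at 46.3, 54.0 and 74.1 against 176, 81.5 and 138 (1.12 ± 0.36). Its mean was 141 in the littermates on water, above the 58.1 of the littermates on DSS, and 64.5 in the knockouts on water. There the knockout difference was reversed, at -1.12 ± 0.36, and the difference between treatments did not pass (limma adjusted p 0.9998). Ereg, Areg and Tnfrsf12a were the 3 genes without overlap among 22 tested of wound and regenerating epithelium, beside 2.99% of all tested genes. The median of that list was 0.43, with 16 higher and 6 lower, and ran from 0.15 to 0.88 when 1 DSS library was left out. Its defining genes Ly6a and Clu overlapped and had negative differences, -0.49 ± 0.59 and -0.69 ± 0.90.

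Adamts4, a protease that cleaves aggrecan and related proteoglycans, stood at 287, 168 and 207 in the littermates and at 790.1, 337 and 606 in the knockouts (1.34 ± 0.36, adjusted p 0.951). Adamts1 stood at 379, 374 and 203 against 951, 406 and 1549 (1.46 ± 0.49). Mmp3, stromelysin 1, stood at 12.6, 43.2 and 71.6 against 433, 40.8 and 3236 (3.46 ± 1.88), and Mmp13, a collagenase, at 56.4, 262 and 147 against 235, 221 and 8709. For both Mmp genes knockout 3 was highest by far and knockout 2 lay among the littermates, as did knockout 1 for Mmp13. Without knockout 3 the difference was 1.93 in place of 3.46 for Mmp3 and 0.81 in place of 2.56 for Mmp13. Over 17 tested metalloproteinases and inhibitors 14 were higher, 3 lower, 2 without overlap, both higher (2.99% of all tested genes), and the median was 0.996, or 0.72 to 1.28 when 1 DSS library was left out. Without the filter on low values the median over 18 genes was 0.81, with 14 higher and 4 lower.

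**Figure D5:**
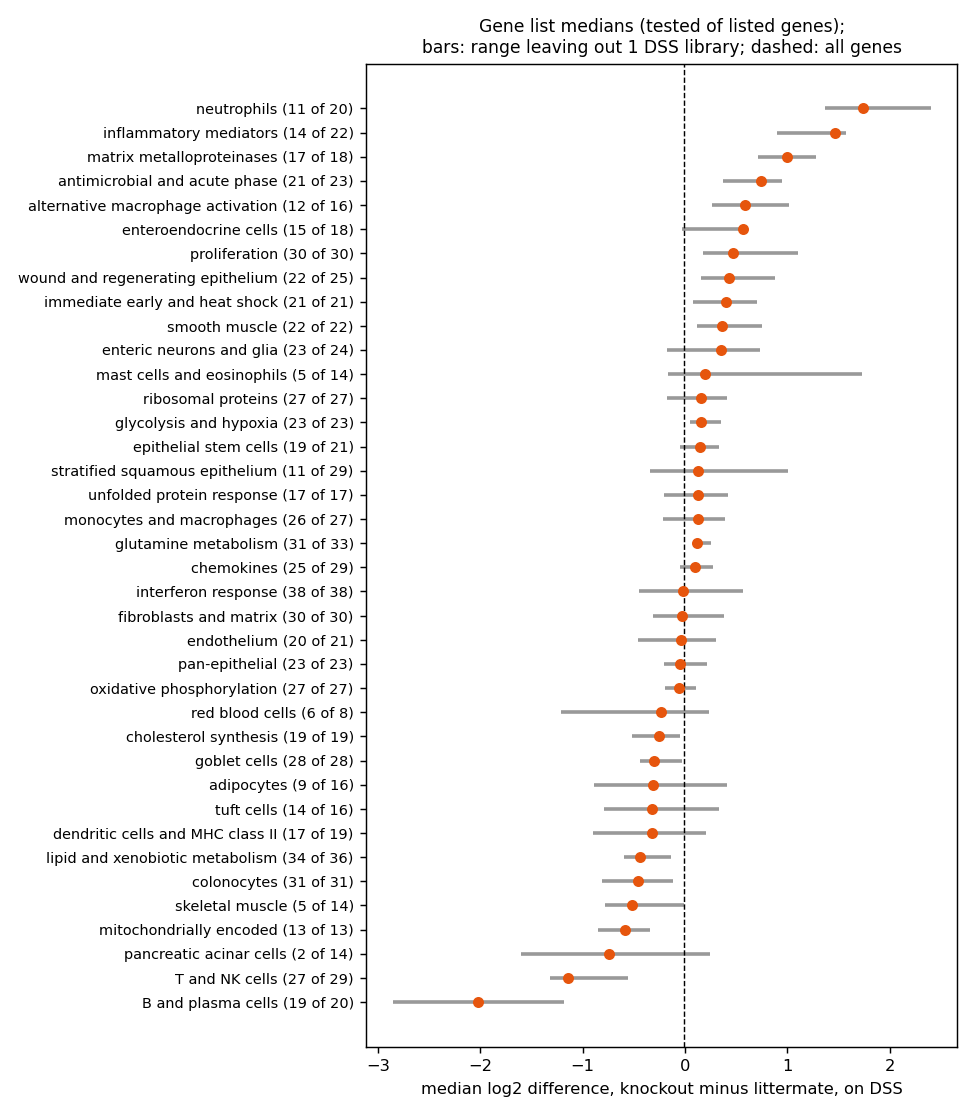
Median log2 difference (x axis, knockout minus littermate on DSS) of each of 38 gene lists (y axis, with tested and listed genes), the range when each DSS library in turn is left out, and the median of all genes as a dashed line at -0.01. The neutrophil list is at the top with 1.74 and the B and plasma cell list at the bottom with -2.02.

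Most pan-epithelial, colonocyte and goblet cell genes were lower. The median over 23 pan-epithelial genes was -0.05, or 0.21 without knockout 3, with 0 genes without overlap, and it was -0.46 over 31 colonocyte genes, also with 0. Slc26a3, the chloride and bicarbonate exchanger of the colon surface, stood at 9489, 10734 and 14954 against 14758, 9152 and 10194 (-0.05 ± 0.71). Cyp2c55, a cytochrome P450 of the colon, stood at 199, 1181 and 28438 against 1943, 6.79 and 7966. Littermate 4 and knockout 3 were the highest, and the groups overlapped. Lgr5, the stem cell receptor, stood at 43.7, 29.1 and 127 against 2.42, 89.7 and 0 (-3.04 ± 1.23), and knockout 2 lay among the littermates. Without knockout 3 its difference was -1.66. Of 19 tested stem cell genes 12 were higher, with a median of 0.15, and of 15 enteroendocrine genes 11 were higher, with a median of 0.57 that was -0.029 without knockout 1.

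Muc2, the main mucin of goblet cells, stood at 173336, 164544 and 435810 against 178814, 148650 and 247577 (-0.31 ± 0.51), and overlapped. Of 28 goblet cell genes 23 were lower and 5 higher, with a median of -0.30. Without overlap were 1 higher, the membrane mucin Muc1, and 1 lower, Creb3l4, beside 2.99% and 4.08% of all tested genes. Creb3l4 stood at 288, 359 and 385 against 177, 173 and 157. Reg3b, an antimicrobial lectin, stood at 63.9, 49.0 and 1278 against 0, 0 and 471, where again littermate 4 and knockout 3 were high. The 21 tested antimicrobial and acute phase genes had a median of 0.74.

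Other genes of glutamine and glutamate metabolism differed in both directions. Gpt2, a mitochondrial alanine aminotransferase that uses glutamate, stood at 464, 536 and 387 in the littermates and at 329, 247 and 182 in the knockouts, a log2 difference of -0.90 ± 0.26 (adjusted p 0.951). Asns, which makes asparagine from aspartate and glutamine, stood at 984, 693 and 844 against 1391, 1231 and 1088, a difference of 0.56 ± 0.22. Slc7a5, an amino acid transporter that exchanges glutamine for leucine, stood at 178, 100.5 and 201 against 259, 213 and 405 (0.87 ± 0.39). Of 31 tested genes 24 were higher and 7 lower, with a median of 0.12. Without overlap were 4 higher, Asns, Slc7a5, Odc1 of polyamine synthesis and Aldh18a1 of proline synthesis, and 2 lower, Glul and Gpt2, in all 6 of 31 beside 7.07% of all tested genes.

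The gene with the smallest p was mt-Td, the 70-base mitochondrial aspartate tRNA gene at M:6942-7011. It stood at 208, 89.7 and 270.1 in the littermates and at 0.806, 1.36 and 3.13 in the knockouts, a log2 difference of -6.05 ± 0.79 (adjusted p 0.154). In the 6 water libraries of both genotypes it lay between 0 and 1.92, so the littermates on DSS were the only group with more. Without the filter on low values, with a pseudocount of 5, or without knockout 3, mt-Td did pass, at adjusted p values of 0.0229, 0.00547 and 0.0323. Another mitochondrial tRNA gene, mt-Ts2, looked at after its values were seen, was at 180 in littermate 2, at 454 in knockout 3 and at or under 1.36 in the other 4 DSS libraries. Among 19 tested mitochondrial tRNA genes mt-Td alone had groups without overlap, beside 4.08% of all tested genes that were lower without overlap. The median of the 19 was -0.19.

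The 13 protein-coding genes of the mitochondrial genome were all lower, with a median of -0.59 that ran from -0.85 to -0.35 when 1 DSS library was left out. Without overlap were 3 of them, beside 4.08% of all tested genes that were lower without overlap. The cytochrome oxidase gene mt-Co1 stood at 597442, 724066 and 666571 in the littermates and at 366667, 367162 and 514569 in the knockouts (-0.69 ± 0.51, adjusted p 0.966). Together the 13 took 4.47%, 4.57% and 4.74% of the normalized counts in the littermates and 2.42%, 2.44% and 4.64% in the knockouts. Knockouts 1 and 2 were low and knockout 3 was level with the littermates. The 27 nuclear genes of oxidative phosphorylation had a median of -0.06. On water the mitochondrial list scores were -1.03, -1.02 and 1.39 in the 3 knockout libraries, wider than on DSS.

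Of 34 tested genes of lipid and xenobiotic metabolism 29 were lower and 5 higher, with a median of -0.44, and 4 were without overlap, all lower (4.08% of all tested genes), Sult1a1, Cyp2s1, Cyp4b1 and Acadm. Acadm, of mitochondrial fatty acid oxidation, stood at 2195, 2257 and 1973 against 1866, 1541 and 1543 (-0.38 ± 0.21). Of 19 cholesterol synthesis genes 18 were lower, with a median of -0.26 and 0 without overlap. Among 21 immediate early and heat shock genes 19 were higher and 2 lower. Without overlap were 3 higher and 1 lower, beside 2.99% and 4.08% of all tested genes. The 3 higher were Dusp1, Nr4a1 and Fosb, with differences of 0.90, 1.22 and 1.95. Egr3 had the lowest difference of the list, at -2.75, which was -1.70 without knockout 3. Immediate early genes are switched on within minutes of a stimulus.

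Of the defining markers of tissue next to the colon Krt14 was read, while others were at or near 0. Krt14, of stratified epithelium, stood at 7.57, 73.1 and 0 in the littermates and at 25.0, 12.2 and 0 in the knockouts. Adipoq of fat had no read in any of the 6 libraries, Krt5 of stratified epithelium was read only in knockout 1 at 7.26, and Prss2 of the pancreas only in knockout 3 at 14.1. Other genes of these lists were read, among them Pnpla2 and Plin4 of fat, Perp, Krt36 and Krt6b of stratified epithelium and Cela1 of the pancreas. Krt36 and Krt6b were highest in knockout 1, at 146 and 180. The stratified epithelium score was -0.018, 0.054 and -0.67 in the littermates and 1.56, -0.24 and -0.79 in the knockouts. The summed level ran from 2776 to 3703 in the littermates and from 2301 to 4144 in the knockouts for the 16 fat genes. For the 25 genes of stratified epithelium it ran from 5557 to 6612 and from 4194 to 9029, and for the 9 of the pancreas from 622 to 1776 and from 606 to 2726. Plin4 was higher in every knockout library, at 291, 252 and 236 against 578, 319 and 840.4, while the groups overlapped for the other tested genes of the 3 lists. Of all tested genes 2.99% were higher without overlap. Haemoglobin Hbb-bs was highest in littermate 4 and knockout 3, at 869 and 1202, and lay between 132 and 273 in the other 4. Smooth muscle genes, with 20 of 22 higher and a median of 0.36, overlapped in every case. Myh11, the smooth muscle myosin, stood at 19585, 24916 and 24318 against 35768, 16898 and 40274, so knockouts 1 and 3, the libraries with the most S100a9 and Cxcl1, also had the most Myh11. The part of muscle RNA in the results on those genes was not tested.

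The knockout difference on water, from libraries that the DSS comparison does not use, gave 0 genes (0%) past the adjusted threshold in limma and 757 (3.25%) at an unadjusted p under 0.05. The test of whether the knockout difference itself differed between DSS and water gave 0 genes (0%) as well, 640 (2.75%) at an unadjusted p under 0.05, and a smallest adjusted p of 0.9998. Of the 1645 genes without overlap on DSS, 949 (57.7%) had the same sign on water, beside 54.8% of all tested genes. For Cxcl1 the difference was 5.53 on DSS and -1.03 on water, and for S100a9 5.19 and 0.00. In every water library S100a9 was at 0 and Cxcl1 at 4.82 normalized counts or less, so their water values lie at the floor. For Lif the differences were 1.96 and -0.17, and for Themis -4.39 and 1.77. None of these differences between treatments passed after adjustment.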

How the data were processed

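Colon tissue RNA was extracted with TRIzol and sequenced on an Illumina HiSeq instrument, per the labels' protocols. The deposited log2 table holds, per the labels, log2 normalized counts made by the authors, and a further deposited log2 table holds log2 FPKM. STAR and the builds GRCm38 and mm10 are named in the submitters' processing notes, while how reads were counted, with which strand setting and annotation, and all versions are not given there. All low values of the main table were whole multiples of 1 step per library within 0.01 reads, so reads per library were read back and depth is known.

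Linear values were restored, genes averaging 10 or more normalized counts across all libraries kept (23263 of 40050), and group means fitted with limma 3.58.1 in R 4.3.3 on log2(normalized count + 1), with a mean-variance trend and Benjamini-Hochberg adjustment, a gene passing at an adjusted p under 0.05. Differences of low genes come out smaller on that scale. All 12 libraries shared 1 estimate of the spread, with 8 residual and 3.86 prior degrees of freedom. Exact permutation tests served for Glul and Lyz2. A further 4 columns that match no sample label were not used.

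The comparison, the 38 gene lists (861 entries, 754 tested) and the alternatives were chosen with earlier results of these data known. Genes named are Glul, Lyz2, the 12 of smallest p in each direction with a name, no overlap and a group mean of 50 or more, and the first 2 and the 2 of smallest p of each list. Not all of these are described, and some results are not reported here. Other genes without overlap, and Ly6g, Il6, Il22, Ptgs2, Cxcl2, Mmp13 and Gbp2 among others, were named after their values were seen. Overlapping genes and near-identical copies may share reads. Coordinates come from GENCODE M21 on GRCm38 by gene identifier, and promoters from RefSeq. The fit was tested on simulated data. The alternatives were other samples in the fit, filters, pseudocounts, scalings, weights, the FPKM table, a replicate block and leaving out each library.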

Additional observations from a re-analysis of the deposited data

How the results depend on the processing

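With 3 libraries per group and a median standard error of 0.44 on the log2 scale, only large and even differences could pass, and genes under about 10 normalized counts rest on few reads. In place of 0 genes, the difference on DSS passed for 2 genes in the FPKM table, 4 with no filter on low values and 1 with a pseudocount of 5, and for 0 to 7 when 1 library was left out. mt-Td was among them in those 3 settings, at log2 differences of -5.96, -6.05 and -4.72, and without knockout 3. Acer1 passed without littermate 1 (-2.61). The other settings gave 0. The count at an unadjusted p under 0.05 was 745 with a minimum mean of 50, 2087 with no filter, 584 with only the 6 DSS libraries, and 986 to 1896 when 1 library was left out. More genes were higher than lower without littermate 4 (662 and 492) and with the replicate block (533 and 374). Both settings take littermate 4 out of the DSS difference, the block because no other library carries its number.

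On water 2 genes passed in the FPKM table, 11 with no filter, 1 with a pseudocount of 5, 16 with sample weights and 0 to 1 without a library. The difference between the treatments passed for 2 genes in the FPKM table and for 0 to 2 without a library.

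The DSS groups share the numbers 1 and 2 in their labels, and the deviations of same-numbered DSS libraries correlated at -0.10 and 0.02, so the numbers were not taken to pair the samples. With the number as a replicate block, 0 genes passed and 907 had an unadjusted p under 0.05. Littermate 4 alone carries its number, so the block takes that library out of the DSS difference and is no separate check. Leaving littermate 4 out gave -0.75 for Glul, -0.25 for Lyz2, 0.15 for Muc2 and 0.14 for Slc26a3. Under the block the difference became -0.63 for Glul, -0.18 for Lyz2, 0.11 for Muc2 and 0.47 for Slc26a3, and the goblet cell median 0.10.

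In the FPKM table, where values near 0 are compressed, the median was 0.57 for neutrophils, 0.83 for inflammatory mediators, -0.31 for T and NK cells and -0.37 for B and plasma cells. Mast cell and eosinophil genes (5 tested, median 0.19) had a median of 0.73 with quantile normalization, 1.06 with sample weights, 0.87 with voom weights, and -0.17 to 1.73 without a library. The antimicrobial median was 1.03 with sample weights and 0.37 to 0.95 without a library. When 1 library was left out, the medians ran from 0.10 to 0.26 for glutamine metabolism, -0.21 to 0.21 for pan-epithelial genes, -0.029 to 0.57 for enteroendocrine cells, 1.36 to 2.40 for neutrophils and 0.90 to 1.57 for inflammatory mediators.

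The sign turned for Csf1r with sample weights (0.031), Slc26a3 with sample weights (0.023) and Epcam with quantile normalization (-0.020). When 1 library was left out the difference ran from -0.10 to 0.89 for Adgre1, -1.82 to 0.18 for Clu, -0.39 to 0.34 for Csf1r, -0.079 to 0.12 for Epcam, -1.03 to 0.14 for Ly6a, -0.25 to 0.98 for Lyz2, -0.55 to 0.15 for Muc2 and -0.25 to 0.14 for Slc26a3. The cause of these shifts was not tested.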

Other observations

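Selp, the P-selectin with which the vessel wall slows passing leukocytes, stood at 4.21, 0 and 28.8 normalized counts in littermates 1, 2 and 4 and at 136, 16.3 and 236 in knockouts 1, 2 and 3, a log2 difference of 3.94 ± 1.22 (limma adjusted p 0.951). Knockout 2 lay below littermate 4, so the groups overlapped, and knockouts 1 and 3 were the high libraries, as for S100a9 and Cxcl1. The endothelial list did not differ with it: 9 of its 20 tested genes were higher, 11 lower, and the median was -0.04.

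Hspa5, a chaperone of the endoplasmic reticulum, stood at 3366, 4573 and 2696 in the littermates and at 7411, 8277 and 3977 in the knockouts (0.85 ± 0.30, adjusted p 0.951). Knockout 3 lay between the littermates. The 17 genes of the unfolded protein response had a median of 0.12, with 12 higher and 5 lower.

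Many genes were read in some libraries of a group and missing from others. Counting genes at or under 3 normalized counts in 1 library and at or above 100 in another library of the same group, there were 120 in the littermates and 173 in the knockouts on DSS, and 57 and 78 on water.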
